A study of Mus musculus with 8 samples.

Results

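The genes described here are the DNA repair genes of the array, chosen by gene name: Mgmt, the Alkbh, Xrcc, Ercc, Fanc and Parp families, genes whose names start with Rad5, Brca1 and Brca2, mismatch repair genes of the Msh, Mlh and Pms families, the glycosylases Ogg1 and Neil1 to Neil3, the ligases Lig1, Lig3 and Lig4, Xpa, Xpc, Atm and Atr. The names matched 137 spots, which hold 110 probes of 78 genes, out of 39429 probes of 30222 gene names. Of these, 100 probes of 75 genes gave enough signal to be tested.

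RNA was profiled in NMuMG-NT2197 cells, a cultured mouse mammary epithelial line known to carry an activated Neu (ErbB2) oncogene in both groups. The first group of 4 samples expressed a ShcA cDNA with glutamine in place of an arginine (R175Q), and the other 4 expressed the wild-type ShcA cDNA (WT), both from a pMSCV/hygro vector. ShcA is an adaptor protein that binds phosphotyrosine on activated receptors. Each sample was labelled with Cy3 and hybridised with a Cy5-labelled common reference, so every value is log2 of sample over reference. The labels describe no other allele or agent, do not say whether each group is 1 transfected pool or separate clones or cultures, and do not say whether the cells' own ShcA is still present. If the 4 samples of a group came from 1 culture, p-values measure only the spread between these samples.

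DNA repair is split between pathways that each recognise a kind of damage. Alkylated bases can be mended in place, small base lesions are cut out and replaced, bulky lesions are removed with a stretch of strand, mispaired bases are corrected after replication, and broken strands are joined directly or copied from an intact sister. Poly(ADP-ribose) polymerases (Parps) attach ADP-ribose to proteins. Parp1, Parp2 and Parp3 act at strand breaks, while many others of the family work elsewhere in the cell, and Parp9, Parp10, Parp12 and Parp14 are known as genes induced by interferon.

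Promoters from RefSeq (build GRCm38.p6, 250 bases before to 50 after a listed start) are shown for the gene with the largest change and for Parp4, a called Parp gene whose window held an interferon-type motif. The first is the Mgmt window at chr7:136894336-136894635 on the plus strand, the first of its listed starts, with 4 GC boxes (GGGCGG or its complement CCGCCC) in capitals. The second is the Parp4 window at chr14:56575369-56575668 on the plus strand, with capitals over 2 overlapping matches of a pair of GAAA words set 2 bases apart.
Mgmt: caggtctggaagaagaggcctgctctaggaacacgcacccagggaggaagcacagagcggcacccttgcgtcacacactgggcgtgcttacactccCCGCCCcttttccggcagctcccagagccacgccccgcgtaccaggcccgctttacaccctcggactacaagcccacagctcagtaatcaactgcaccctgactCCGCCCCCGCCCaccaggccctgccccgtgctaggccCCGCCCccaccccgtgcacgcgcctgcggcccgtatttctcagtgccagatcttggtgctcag
Parp4: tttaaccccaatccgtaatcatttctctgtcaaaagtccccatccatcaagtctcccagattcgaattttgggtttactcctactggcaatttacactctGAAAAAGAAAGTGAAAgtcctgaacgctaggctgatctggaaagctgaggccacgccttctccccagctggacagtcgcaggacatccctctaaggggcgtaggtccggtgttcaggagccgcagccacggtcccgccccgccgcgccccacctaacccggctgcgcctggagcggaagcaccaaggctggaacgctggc
The Mgmt window holds 20 CpG sites and the Parp4 window 17, against a median of 21 in the 74 windows found for 63 of the 78 repair genes and of 7 in all 32851 windows. A GC box on either strand stood in 44 of the 74 repair windows (59.5%) and in 35.7% of all windows. The GAAA pair, searched on both strands, was found in 5 of the 74 (6.76%), those of Brca2, Fancg, Parp11, Parp4 and Xrcc1, and in 3.44% of all windows. Of these genes, only Parp4 had a called probe. The window of Parp12, also a called gene, was scanned and held no GAAA pair. Parp9, Parp10 and Parp14 were not scanned here. These matches describe the letters of the windows.

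Among the DNA repair genes, Mgmt and 5 Parp genes differed most between R175Q and WT cells. The shares of repair probes that changed were near or below those of all probes. Of the 100 tested probes, 11 were higher and 2 lower in R175Q cells (limma, Benjamini-Hochberg adjusted p under 0.05 over all 22849 probes tested), which is 13% of them, against 18.6% of all probes in either direction. By direction, 8.95% of all probes were higher and 9.68% lower. The median difference was 0.03 on the log2 scale for the repair probes and -0.02 for all probes. The values of the 4 R175Q and 4 WT arrays did not overlap for 24 repair probes (24%), of which 19 were higher and 5 lower in R175Q, against 23.3% of all probes. A difference of more than 0.5 (log2) in either direction was found for 5 repair probes (5%) and for 5.95% of all probes. An unadjusted p under 0.05 was found for 29 of the 100 repair probes (limma). Without background correction it was found for 30, against 6999 of all 22849 probes.

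**Figure D1:**
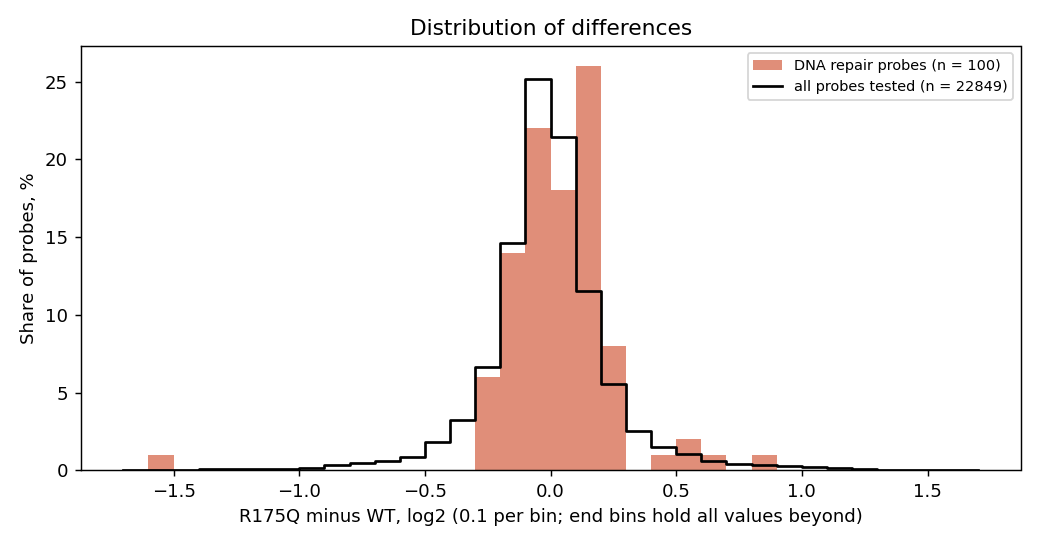
Share of probes (%) by their R175Q minus WT difference (log2, in bins of 0.1), for the 100 DNA repair probes tested (filled bars) and all 22849 probes tested (black line). Most repair probes lie near 0, and Mgmt stands alone on the left at -1.50.

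The background correction mattered for these counts. With the background fitted to all spots in place of the negative control spots, 2 repair probes were higher (Parp9 and Parp14) and 1 lower (Mgmt), against 4.01% of all probes called. With slide as a fixed block, 6 were higher and 5 lower, against 13.8% of all probes called. With slide as a random block, 12 were higher and 5 lower, among them all 13 called probes, against 20.7% of all probes called.

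Of the genes that mend bases in place, Mgmt was much lower in R175Q cells. Mgmt encodes the methyltransferase that takes alkyl groups from guanine onto itself and is spent in doing so, and its loss in tumours is known to mark sensitivity to alkylating drugs. Its probe (A_55_P2071858) lies at chr7:144319790-144319849 in mm9, the build of the files. The log2 ratios of Mgmt were -3.80, -3.84, -3.96 and -3.85 in R175Q replicates 1 to 4, against -2.30, -2.55, -2.28 and -2.31 in WT replicates 1 to 4. The groups were far apart, and the probe was well above background on all 8 arrays. Expressed as a share of the reference signal, Mgmt stood at 6.43% to 7.16% on the R175Q arrays, against 17.1% to 20.6% on the WT arrays, with geometric means of 6.88% and 19.5%. Mgmt fell by 1.50 ± 0.07 on the log2 scale (SE, n = 4 each; 2.83-fold; limma adjusted p = 1.93e-06). Among all 22849 probes, 18 had a lower p than Mgmt and 8 fell further.

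Slides holding both groups gave like values. The Mgmt difference was -1.54, -1.55 and -1.53 within the 3 such slides. With the background fitted to all spots it was -1.33 (limma adjusted p = 0.0450), and with that background and slide as a fixed block it was -1.40 (limma adjusted p = 0.269), the 1 alternative of 28 in which the call was lost.

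The other genes of direct reversal, Alkbh2 and Alkbh3, encode dioxygenases that strip methyl groups from bases by oxidation. Their differences were -0.06 ± 0.07 and 0.09 ± 0.06 (log2, SE), and neither passed the test. Of the other AlkB homologues, which include the RNA demethylase Alkbh5 and the tRNA-modifying enzyme Alkbh8, 1 of 8 probes passed. Alkbh6 had log2 ratios of -0.83, -0.89, -0.80 and -0.92 in R175Q cells, against -1.04, -1.16, -1.01 and -1.04 in WT cells, and was higher by 0.20 ± 0.06 (limma adjusted p = 0.0350). The 3 Alkbh5 probes had differences of 0.12, 0.16 and 0.20 and did not pass.

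**Figure D2:**
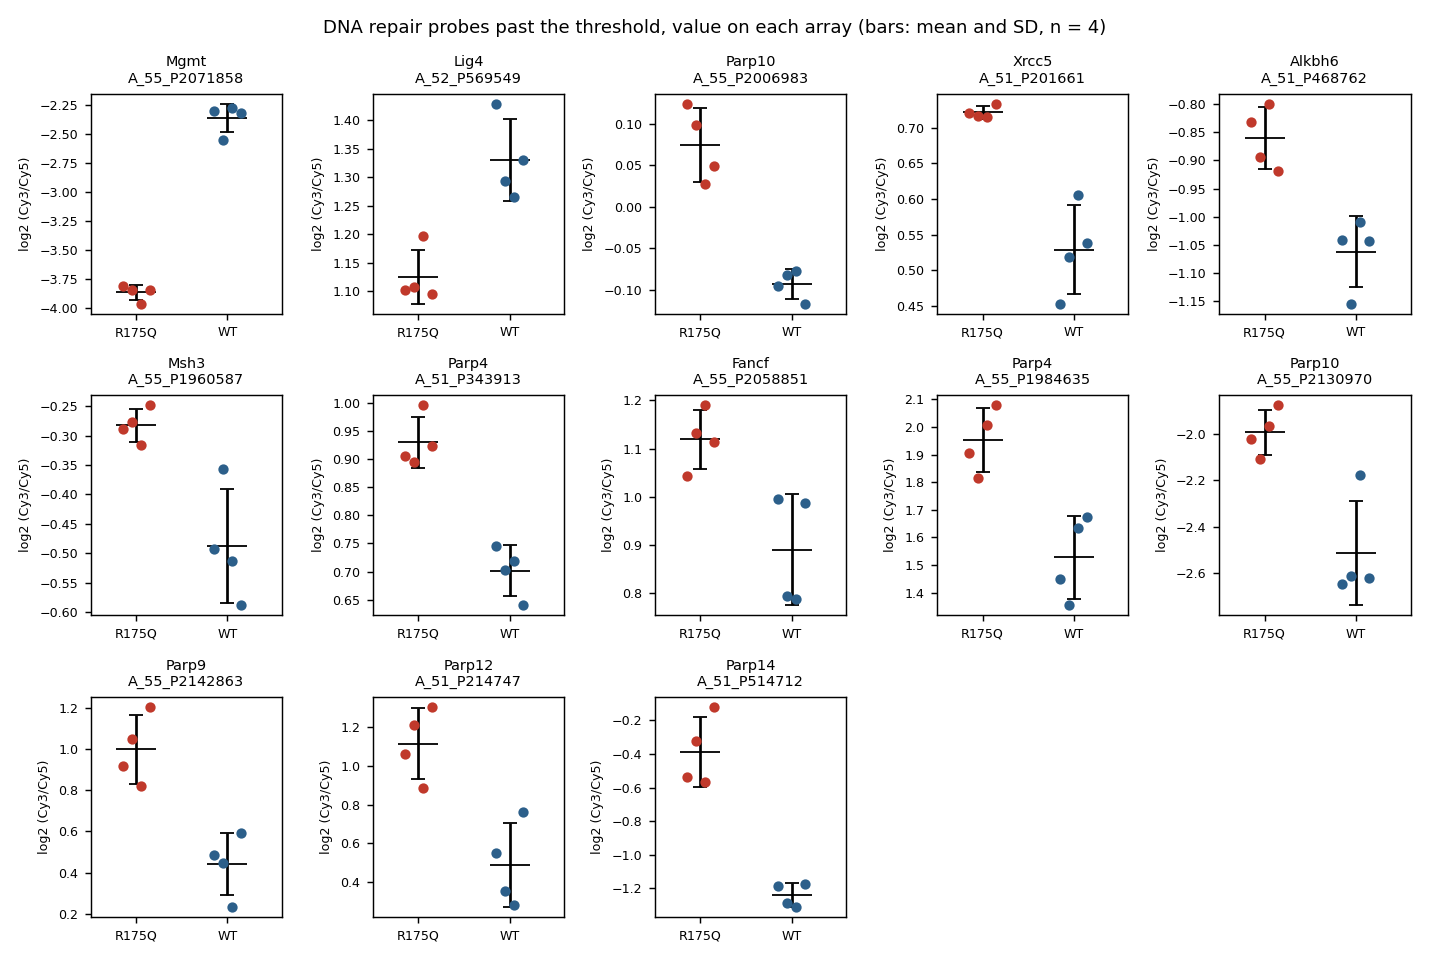
Log2 ratio of Cy3 (sample) over Cy5 (reference) on each array for the 13 DNA repair probes past the threshold, with 4 R175Q arrays (left, red) and 4 WT arrays (right, blue); the horizontal bar is the mean and the whiskers the SD, and each panel has its own scale. Mgmt and Lig4 are lower in R175Q, the 11 others higher, and the groups do not overlap in any panel.

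The Parp genes beyond Parp1 to Parp3 held most of the rises. Of their 13 tested probes, 7 were higher and none lower in R175Q cells, against 8.95% and 9.68% of all probes. These 7 came from 5 of the 9 genes: Parp14, Parp12, Parp9, Parp10 and Parp4. The largest was Parp14, a mono-ADP-ribosyltransferase with macrodomains. It had log2 ratios of -0.54, -0.33, -0.57 and -0.12 in R175Q cells, against -1.18, -1.29, -1.31 and -1.17 in WT cells, and rose by 0.85 ± 0.10 (SE, n = 4 each; 1.80-fold; limma adjusted p = 0.000247). Every R175Q array lay above every WT array.

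Parp12, a zinc-finger member of the family, had ratios of 1.06, 1.21, 0.89 and 1.31 in R175Q cells, against 0.55, 0.35, 0.28 and 0.76 in WT cells, a rise of 0.63 ± 0.12 (limma adjusted p = 0.00522). Parp9, which works with the ubiquitin ligase Dtx3l, had ratios of 0.92, 1.05, 0.82 and 1.21 in R175Q cells, against 0.49, 0.45, 0.23 and 0.59 in WT cells, a rise of 0.56 ± 0.10 (limma adjusted p = 0.00352). In both genes every R175Q array lay above every WT array. A second Parp9 probe had too little signal to be tested.

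Parp10, a mono-ADP-ribosyltransferase, was read by 2 probes that overlap on the genome. The first (A_55_P2130970) had ratios of -2.02, -2.11, -1.96 and -1.87 in R175Q cells, against -2.65, -2.61, -2.18 and -2.62 in WT cells, a rise of 0.52 ± 0.11 (limma adjusted p = 0.00747). The other (A_55_P2006983), well above background on 3 arrays of each group, had ratios of 0.12, 0.10, 0.03 and 0.05 in R175Q cells, against -0.10, -0.08, -0.08 and -0.12 in WT cells, and rose by 0.17 ± 0.05 (limma adjusted p = 0.0457). Both rose, by different amounts. The call of A_55_P2006983 was lost when any of 7 of the 8 arrays was left out.

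Parp4, the Parp of the vault particle, was also read by 2 probes. The first (A_55_P1984635) had ratios of 1.91, 1.82, 2.01 and 2.08 in R175Q cells, against 1.45, 1.35, 1.63 and 1.67 in WT cells, a rise of 0.42 ± 0.09 (limma adjusted p = 0.00817). The other (A_51_P343913) had ratios of 0.91, 0.89, 1.00 and 0.92 in R175Q cells, against 0.75, 0.70, 0.72 and 0.64 in WT cells, a rise of 0.23 ± 0.05 (limma adjusted p = 0.0150). The remaining Parp genes did not pass: Parp8 differed by 0.23 ± 0.11, Parp11 by 0.03 ± 0.07, Parp16 by 0.03 and 0.05, and Parp6 by -0.27 ± 0.09 and -0.05 ± 0.06. Within the 3 slides with both groups, Parp14, for example, differed by 0.86, 0.73 and 1.05. The groups did not overlap in any of the 7 called Parp probes, so their sign within a slide could not differ and is no further check. With the background fitted to all spots only Parp14 (0.49, adjusted p = 0.0426) and Parp9 (0.47, adjusted p = 0.0398) passed, while Parp12 was at 0.46 (adjusted p = 0.156), Parp10 at 0.41 (A_55_P2130970, adjusted p = 0.134) and Parp4 at 0.46 (A_55_P1984635, adjusted p = 0.232), all by limma.

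Genes of the interferon response were read beside these, in a list made with the results known. Of its 11 tested probes, 8 were higher in R175Q cells and none lower, against 8.95% and 9.68% of all probes. The 8 came from 7 of the 8 genes tested. Rsad2, an antiviral enzyme, was higher by 1.35 ± 0.13, Ifit1 by 0.83 ± 0.13 and Isg15, a ubiquitin-like modifier, by 0.78 ± 0.10 and 0.73 ± 0.13 (log2, SE; limma adjusted p = 9.32e-05, 0.00197, 0.000446 and 0.0029). The transcription factors Irf7, Irf9 and Irf1 were higher by 0.76, 0.71 and 0.43. Dtx3l, the partner of Parp9, was higher by 0.54 ± 0.09 at 1 of its 3 probes (limma adjusted p = 0.00294). Stat2 differed by 0.09 ± 0.07 and did not pass. The mean of the 11 probes was -0.89 to -0.55 on the R175Q arrays and -1.41 to -1.31 on the WT arrays. Whether the Parp rises and these depend on each other was not tested.

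**Figure D3:**
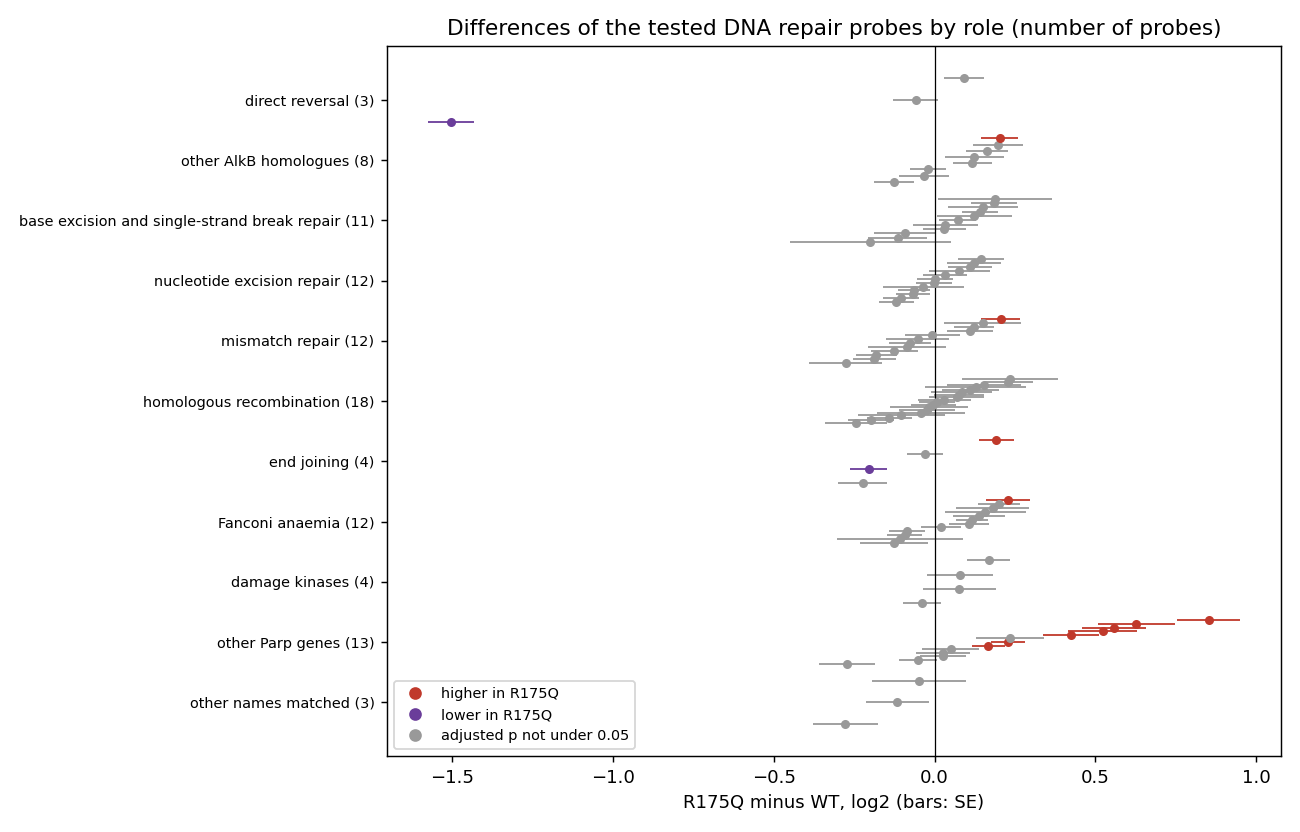
R175Q minus WT difference (log2, bars are SE) of each of the 100 tested DNA repair probes, in rows by role with the number of probes; red marks probes higher and purple probes lower in R175Q, and grey those with an adjusted p not under 0.05. The coloured points are 7 of 13 in the row of the other Parp genes, Mgmt at -1.50, and 5 small ones elsewhere.

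Leaving out Mgmt and the other Parp genes, 86 probes remained, with differences from -0.28 to 0.23. Of these, 4 were higher and 1 lower (5.81%), against 18.6% of all probes called. The genes left out were picked with their calls known, which by itself lowers this share. Base excision and single-strand break repair had 11 tested probes and no call by limma. Ogg1, the glycosylase for oxidised guanine, differed by -0.20 ± 0.25, Neil1 by -0.11 ± 0.09 and -0.09 ± 0.10, Neil3 by 0.19 ± 0.18, Xrcc1, the scaffold of the pathway, by 0.14 ± 0.06, Lig1 by 0.12 ± 0.12, Lig3 by 0.03 and 0.15, Parp1 by 0.03 ± 0.10 and Parp2 by 0.07 ± 0.06 (log2, SE). At an unadjusted p under 0.05 there were 2. Parp3 had the lowest p of them, with log2 ratios of 0.49, 0.39, 0.20 and 0.29 in R175Q cells, against 0.17, 0.20, 0.08 and 0.19 in WT cells, a difference of 0.19 ± 0.07 that did not pass (limma adjusted p = 0.107). The Parp3 groups overlapped at 0.20. Neil2 was not tested for low signal.

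Nucleotide excision repair, which removes bulky lesions, had 12 tested probes of 9 genes and no call by limma, none of them with an unadjusted p under 0.05 either, with differences from -0.12 to 0.14. Ercc2, a helicase of the repair complex, had the lowest p, with ratios of 0.49, 0.40, 0.50 and 0.41 in R175Q cells, against 0.56, 0.52, 0.61 and 0.60 in WT cells. The arrays did not overlap, and the difference was -0.12 ± 0.05 (limma adjusted p = 0.169). The damage sensor Xpc differed by 0.08 ± 0.09, and Xpa by 0.03 and 0.14.

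Mismatch repair had 1 call among 12 tested probes. Msh3, which helps to bind insertion and deletion loops, was read by 3 probes that disagreed. A_55_P1960587 had ratios of -0.29, -0.28, -0.32 and -0.25 in R175Q cells, against -0.49, -0.36, -0.51 and -0.59 in WT cells, and was higher by 0.21 ± 0.06 (limma adjusted p = 0.0426). The other Msh3 probes differed by -0.12 ± 0.07 and 0.11 ± 0.07 and did not pass. Msh6 differed by -0.09 ± 0.12, Mlh3 by -0.18 ± 0.06 and Pms1 by 0.15 ± 0.12, and Pms2 by -0.05 and -0.01, none past the threshold. The Msh5 probes, a meiotic member, differed by -0.28 ± 0.11 and -0.19 ± 0.07. Msh4, its partner in meiosis, was not tested for low signal.

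Homologous recombination, which copies a broken strand from its sister, had 18 tested probes of 13 genes and no call by limma, 3 of them with an unadjusted p under 0.05. Brca1 differed by 0.08 ± 0.09 and Brca2 by -0.02 ± 0.12. The lowest p belonged to Rad51l3 (now Rad51d), whose probe A_66_P120949 had ratios of 0.44, 0.50, 0.39 and 0.49 in R175Q cells, against 0.13, 0.08, 0.30 and 0.39 in WT cells, a difference of 0.23 ± 0.08 (limma adjusted p = 0.0648). Its other probe differed by -0.14 ± 0.07, the opposite direction. Across the list, the mean of the 18 probes was -0.31 to -0.22 on the R175Q arrays, against -0.44 to -0.19 on the WT arrays. Replicate 3 was the lowest array of both groups there. The 28 proliferation probes, none of which passed in limma and 3 of which had an unadjusted p under 0.05, were lowest on the same arrays, at -0.37 in R175Q replicate 3 and -0.56 in WT replicate 3, against -0.16 to 0.03 on the other arrays of both groups. The part of proliferation in the spread of the recombination genes was not tested.

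End joining had both a rise and a fall among its 4 probes. Xrcc5, the larger subunit of the Ku complex that grips broken ends, had ratios of 0.72, 0.72, 0.71 and 0.73 in R175Q cells, against 0.45, 0.52, 0.61 and 0.54 in WT cells, and was higher by 0.19 ± 0.05 (limma adjusted p = 0.0316). Lig4, the ligase that seals the ends, had ratios of 1.10, 1.11, 1.20 and 1.10 in R175Q cells, against 1.43, 1.29, 1.27 and 1.33 in WT cells, and fell by 0.20 ± 0.06 (limma adjusted p = 0.0347). The Lig4 arrays did not overlap, but they were close, at 1.20 in R175Q replicate 3 and 1.27 in WT replicate 3. Xrcc4, the partner of Lig4, differed by -0.22 ± 0.08 (limma adjusted p = 0.0716), and Xrcc6, the other Ku subunit, by -0.03 ± 0.06. Neither passed.

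The Fanconi anaemia genes act on crosslinks between strands. Of their 12 tested probes, 1 passed: Fancf, a subunit of the core complex, had ratios of 1.04, 1.13, 1.19 and 1.11 in R175Q cells, against 0.99, 0.79, 0.79 and 0.99 in WT cells, and was higher by 0.23 ± 0.07 (limma adjusted p = 0.0453). The closest arrays were 1.04 in R175Q and 0.99 in WT. Fanca differed by -0.13 ± 0.11, Fancg by 0.02 ± 0.06, Fanci by 0.16 ± 0.13, Fancm by 0.18 ± 0.11, and Fancl by 0.14 and 0.20. Atm and Atr, the kinases that signal breaks and stalled forks, had 4 probes and no call by limma, 1 of them with an unadjusted p under 0.05. Atr (A_52_P428125) had ratios of 0.62, 0.63, 0.56 and 0.69 in R175Q cells, against 0.51, 0.50, 0.29 and 0.52 in WT cells, a difference of 0.17 ± 0.07 (limma adjusted p = 0.114), and Atm differed by -0.04 and 0.08.

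The name rule also matched Ercc6l, Rad54l2 and Xrcc6bp1 (now Atp23), none of which passed in limma, 1 of them with an unadjusted p under 0.05. Xrcc6bp1, with the largest size among all members below the threshold, had ratios of 1.91, 1.97, 1.73 and 1.94 in R175Q cells, against 2.35, 1.95, 2.04 and 2.31 in WT cells, a difference of -0.28 ± 0.10 (limma adjusted p = 0.0874). The groups overlapped, with 1.97 in R175Q replicate 2 and 1.95 in WT replicate 2. Its sign turned under another background correction.

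Among the 87 probes that did not pass, 81 had a 95% interval of the difference within 0.5 in either direction (log2), and the median SE was 0.0779. The 6 others were of Fancb, Neil3, Ogg1, Rad51ap1, Msh5 and Xrcc6bp1. Of 23 genes with more than 1 tested probe, 6 had probes with opposite signs. The calls outside Mgmt and the Parp genes were near the threshold, with adjusted p from 0.0316 to 0.0453 by limma. None of the 5 (Fancf, Msh3, Alkbh6, Xrcc5 and Lig4) passed with the background fitted to all spots (adjusted p 0.144 to 0.548) or with slide as a fixed block (0.0892 to 0.122), though all 5 did with slide as a random block, and leaving out 1 array ended each call for 5 to 7 of the 8 arrays. The 10 probes not tested were of Fanca, Fanci, Neil2, Rad51ap2, Rad51l1, Msh4, Ercc8, Parp9 and Alkbh7, all but Alkbh7 for low signal, and Neil2, Rad51ap2 and Msh4 had no tested probe.

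**Figure D4:**
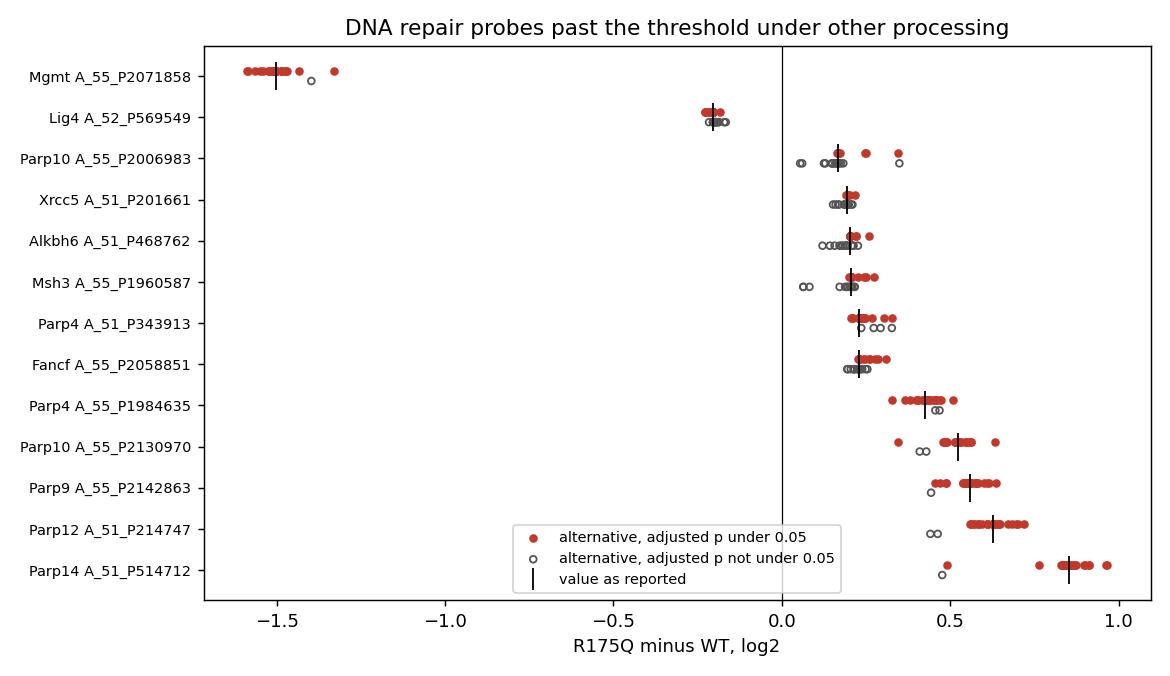
R175Q minus WT difference (log2) of each of the 13 DNA repair probes past the threshold, as reported (black bar) and under each alternative processing (red filled where the adjusted p is under 0.05, open where it is not). Mgmt stays between -1.59 and -1.33, and Parp14, Parp12, Parp9 and the first Parp10 and Parp4 probes stay between 0.33 and 0.97.

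Other repair genes outside the name rule were read the same way. Of 90 tested probes of 65 genes, 4 were higher and 3 lower, where 18.6% of all probes were called. The median difference of the 90 was 3e-04 (log2). Bard1, the partner of Brca1, was higher by 0.42 ± 0.07, the helicase Recql4 by 0.28 ± 0.08 and 0.23 ± 0.07, and the glycosylase Mutyh by 0.24 ± 0.05 (limma adjusted p = 0.0029, 0.0405, 0.0497 and 0.0102). Rad17, which acts in checkpoint signalling, fell by 0.26 ± 0.06 (limma adjusted p = 0.00927). At 1 probe each, Rad1, also of the checkpoint, fell by 0.45 ± 0.09 and Tdp1, which clears topoisomerase ends, by 0.39 ± 0.12 with overlapping groups (limma adjusted p = 0.00888 and 0.0468). The other Rad1 probe differed by 0.09 ± 0.06 and the other Tdp1 probes by -0.04 ± 0.05 and -0.02 ± 0.08, none past the threshold. Bard1 and Mutyh also had probes that did not pass, at 0.13 and 0.23 for Bard1 and 0.13 for Mutyh. Of 18 probes of p53 target genes, 1 was higher and 2 lower, a share near the 18.6% of all probes called. Tnfrsf10b was higher by 0.18 ± 0.05, and Ccng1 and Perp fell by 0.45 ± 0.09 and 0.41 ± 0.06 (limma adjusted p = 0.0381, 0.0052 and 0.000675).

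Shc1, the gene of ShcA, differed by -0.11 ± 0.10 (limma adjusted p = 0.530), with no separation of the groups. Whether this probe reads the introduced cDNA was not tested. Erbb2 differed by -0.12 ± 0.06 (limma adjusted p = 0.242). Over the 8 arrays 53.7% to 63.0% of spots were well above background in Cy3 and none was saturated in Cy3. Saturation in Cy5 was not read. Among the epithelial markers, the levels against the reference were mixed. Cdh1, the adhesion protein of epithelia, averaged 4.73 in both R175Q and WT cells, and Krt8 averaged 1.43 and 2.62 at its probes in R175Q cells, against 1.65 and 2.94 in WT cells (log2 ratio). Krt7 averaged -1.02 in R175Q and 0.87 in WT cells, Epcam -5.07 and -4.81, Cldn7 -3.42 and -3.32, and Krt14 -2.71 and -2.74. Of 10 epithelial probes, 4 were lower in R175Q cells (Krt7, Krt19 and both Krt8 probes), and the mean of the list was -0.01 to 0.06 on the R175Q arrays, against 0.31 to 0.38 on the WT arrays. Of 6 fibroblast probes, 4 were higher (Dcn, Col1a2, Col3a1 and Pdgfrb), with a mean of -6.28 to -5.96 on the R175Q arrays and -6.84 to -6.61 on the WT arrays. Macrophage markers had 1 lower of 10 (Mrc1), lymphocyte markers none of 5 (limma, and none with an unadjusted p under 0.05), endothelial markers 2 higher of 4 (both Vwf) and adipocyte markers 1 lower of 1 (Fabp4). Beside these marker counts, 8.95% of all probes were higher and 9.68% lower. In bulk samples, fewer cells of a type and less RNA per cell cannot be told apart. Some of these markers differed between the groups, as Mgmt and the called Parp genes did, while others, such as Cdh1, did not. The part of the markers in the Mgmt and Parp differences was not tested.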

How the data were processed

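Gene expression in 8 samples, 4 titled R175Q and 4 titled nT (called WT here), was measured on 2-colour Agilent arrays. Per the labels, 1 to 2.5 ng of RNA was amplified in 2 linear rounds; the labels call the Cy5 reference mouse in 1 field and human in another, and the material microdissected though cultured, which was not settled. Agilent Feature Extraction 9.5.3.1, per the file headers, wrote spot intensity, local background intensity, quality flags and a log10 ratio of Cy5 over Cy3. The authors' deposited table gives log2 ratios, judged Cy3 over Cy5 by correlations of 0.902 to 0.941 with the scanner values; its scaling and centring are not stated, and its column medians are 0.0524 to 0.0617.

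Background was corrected by normexp with parameters from the 153 negative control spots (robust, offset 50), then loess per array. This was chosen since a fit to all spots put the Cy3 background at -690 to -0.369, below the negative control medians of 13.1 to 22.7. The gap was widest on R175Q replicate 4 (-690 against 22.7) and small on R175Q replicate 3 (-0.369 against 13.7). Spots flagged by the scanner were left out and spots of a probe averaged. In Cy3, 22971 probes were well above background on 4 or more arrays, and 122 with an unreliable value were left out, leaving 22849. R175Q less WT was tested with limma 3.58.1 (lmFit, eBayes and a two-sided test) under R 4.3.3 with statmod 1.5.0. The p-values were adjusted over all 22849 probes by Benjamini-Hochberg. The procedure was checked on simulated data with independent arrays and no slide effect, so that check does not cover effects of slide. Coordinates are mm9 as in the files, and probes were not placed in exons or UTRs.

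Values per array are given for Mgmt, each repair probe past the threshold and, where a role has none, its probe with the lowest p; the largest of the other repair genes past the threshold are named. Some members are counted but not reported by name here. The members, gene lists and this background correction were chosen with earlier results of these data known. Arrays lay on 4 slides; 3 held both groups. Alternatives covered background, normalization, filter, slide, scan day, replicate block and leaving out each array.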

Additional observations from a re-analysis of the deposited data

Results flagged for a closer look

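Single arrays stood apart from the other 3 of their group by Dixon's test (the gap to the nearest array over the group's range) in 4 of 36 groups tested, and chance flags about 1 in 20. Mgmt was lowest in WT replicate 2 at -2.5453 (log2 ratio). Lig4 was highest in R175Q replicate 3 at 1.1962. Parp10 (A_55_P2130970) was highest in WT replicate 3 at -2.1766, nearer to the R175Q arrays than the other WT arrays were. Atr (A_52_P428125) was lowest in WT replicate 3 at 0.2907. Leaving out each array in turn kept Mgmt between -1.56 and -1.47 and Parp10 between 0.48 and 0.63, both past the threshold each time.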

How the results depend on the processing

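Mgmt kept its direction under all 28 alternatives and its call under 27, between -1.59 and -1.33, the exception being the background fitted to all spots with slide as a fixed block (-1.40, limma adjusted p = 0.269), where 0 repair probes were higher, 0 lower, and 0 and 1 of all probes (limma; 8 repair and 2617 of all probes had an unadjusted p under 0.05). The fitted background alone gave 2 and 1 repair probes and 484 and 432 of all probes higher and lower. Repair probes higher were 7 with Cy3 alone, 6 with slide as a fixed block but 12 as a random block, 5 with scan day as a block and 6 with the negative control background without its robust estimate, an alternative chosen after seeing the data. Repair probes lower were 1 with median centring and with a trend and robust eBayes, and 5 with slide as a block, fixed or random, and with the background without the robust estimate. With the replicate block, 11 were higher and 5 lower; deviations of same-numbered arrays correlated at 0.300, 0.0137, 0.552 and 0.122, not all over 0.1, and no label pairs them, though replicates 3 and 4 of both groups each shared a slide, as R175Q replicate 2 did with WT replicate 1. Leaving out each array gave 6 to 12 higher and 1 to 7 lower repair probes, and 1456 to 2695 lower of all probes, with 1448 to 2521 higher. Parp10 (A_55_P2130970), Parp12, Parp14, Parp4 and Parp9 were called whichever array was left out, while Fancf lost its call in 6, Lig4 in 5, Xrcc5 in 7, Msh3 in 7 and Alkbh6 in 6 of 8. Xrcc6bp1 turned to 0.13 with the fitted background and to 0.20 with slide as a fixed block too. The cause of these shifts was not tested. Probes dim against background limit what could be read, and 10 repair probes could not be tested.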
